A study of Mus musculus with 8 samples.

Results

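The miR-34 and miR-449 family was followed through small RNA sequencing of mouse sperm, as 6 mature miRNAs of the 387 that the count table listed. They were taken by name, as every listed arm of miR-34a, miR-34b, miR-34c, miR-449a, miR-449b and miR-449c, and the match returned mmu-miR-34c-5p, mmu-miR-34c-3p, mmu-miR-34b-5p, mmu-miR-34b-3p, mmu-miR-449a-5p and mmu-miR-449a-3p, written below without the species prefix. The other 5 of 11 named arms of the family, among them those of miR-34a, were not analysed here. The 8 samples were sperm of C57BL/6 mice, 2 months old, in the F0 generation of the labels. They formed 2 groups of 4, Exposed and Trained, in a study of miRNA after treatments related to smell. The heading of the table writes the second group as AceTrained, and neither agent, dose nor number of animals per sample is spelled out. No untreated group was analysed here. Whether each sample is a different animal is not stated, and the p-values below reflect sample-to-sample spread that may be technical.

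A miRNA hairpin is cut into a duplex, and the strand from its 5p or its 3p arm is then loaded onto an Argonaute protein. Bases 2 to 8 of the loaded strand, the seed, do most of the pairing with messenger RNAs. The 5p arms of miR-34 and miR-449 share a seed and are treated as a single family. In mice the miR-34b/c and miR-449 loci are switched on in meiotic and later male germ cells and in ciliated epithelia such as that of the efferent ducts, and losing both loci impairs sperm formation and motile cilia. miR-34c is known as an abundant miRNA of mature sperm.

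RefSeq held mature sequences for 5 of the 6 members, shown because they sort the members by seed and by arm. They are written 5′ to 3′ with the seed in capitals.
miR-34b-5p: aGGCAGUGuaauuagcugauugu
miR-449a-5p: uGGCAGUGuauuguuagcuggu
miR-34b-3p: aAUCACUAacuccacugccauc
miR-34c-3p: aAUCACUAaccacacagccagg
miR-449a-3p: cAGCUAACaugcgacugcucuc
The 5p strands of miR-34b and miR-449a carried the same seed, GGCAGUG, although they matched at only 10 of their first 22 positions. The 3p strands of miR-34b and miR-34c shared another seed, AUCACUA, and were identical over their first 10 bases and at 17 of 22 positions. Counting from the 5′ end, with the base of miR-34b-3p first, they differed by U11C, C12A, U16A, U21G and C22G. The 3p strand of miR-449a had a seed of its own.

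The hairpins lie at 2 loci, given on GRCm38.p6. Mir34b (chr9:51103562-51103645) and Mir34c (chr9:51103034-51103110) are both on the minus strand, 451 bases apart, and lie within the gene Btg4 on its opposite strand, in introns. Mir449a (chr13:113037534-113037624) is on the plus strand in an intron of Cdc20b. The Mir34b hairpin is shown with its 5p arm and then its 3p arm in capitals, because the balance between these arms was the most variable feature of the family.
Mir34b: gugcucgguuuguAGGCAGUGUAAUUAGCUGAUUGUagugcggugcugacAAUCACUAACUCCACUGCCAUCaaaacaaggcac

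Library totals ran from 193013 to 261903 counts assigned to listed miRNAs, where the labels state on average 20000000 reads per sample. Levels are in CPM, counts scaled to an equal total in every library. Germ cell content was checked with the X-linked male germ cell miRNAs, whose 29 listed arms summed to 245011 to 322800 CPM, as sperm should hold. Marker miRNAs of other cells were present at lower levels, with summed ranges of 448.8 to 19847 CPM for red blood cells, 2398 to 9576 CPM for leukocytes, 1298 to 3078 CPM for striated muscle, 7415 to 15668 CPM for smooth muscle and stroma, and 1856 to 3552 CPM for epithelium. A pair of libraries stood at the ends of these ranges. Trained 3 had the highest red blood cell and leukocyte sums and the lowest sums for the other lists, including the germ cell list, and Exposed 2 had the highest germ cell, muscle, stroma and epithelial sums. Bulk sequencing cannot tell fewer cells of a type from less RNA per cell.

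The family held 13.4% of all counts on average (SD 0.597, n = 8), and most of it was miR-34c-5p. In Exposed 1 to 4 the family share was 13.5%, 12.9%, 13.4% and 13.4%, and in Trained 1 to 4 it was 14.1%, 14.4%, 12.6% and 13.0%. The Trained libraries lay on both sides of all 4 Exposed libraries. miR-34c-5p made up 77.3% to 85.2% of the family's reads, miR-34b-3p 6.66% to 8.95%, miR-34b-5p 3.65% to 12.4% and both arms of miR-449a together 1.49% to 1.86%.

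miR-34c-5p was the most abundant miRNA in 8 of 8 libraries. It stood at 106509, 110196, 110079 and 112692 CPM in Exposed 1 to 4 and at 119996, 118530, 97223 and 110388 CPM in Trained 1 to 4. The 4 Exposed values were close together (109869 ± 2543 CPM, SD, n = 4), while Trained held both the highest and the lowest of the 8 (111534 ± 10435 CPM, SD, n = 4). The lowest came from Trained 3, the library with the highest red blood cell sum, whose part in this low value was not tested. The next 4 miRNAs in abundance were miR-881-3p (84552 ± 17052 CPM, SD, n = 8) and miR-465b-5p (65685 ± 6052 CPM), both of the X-linked germ cell set, then let-7a-5p (60374 ± 4560 CPM) and miR-21a-5p (40730 ± 4657 CPM). Between its lowest and highest library miR-34c-5p varied 1.23-fold, against 1.89-fold for miR-881-3p and 1.21-fold for let-7a-5p.

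Below miR-34c-5p, the members fell into steps that were wider than their spread, with a single exception. miR-34b-3p and miR-34b-5p shared the second step, at overall means of 10393 and 10117 CPM, and ranked 23 and 25 among all 387 miRNAs. miR-449a-5p followed at 2240 ± 224 CPM (SD, n = 8; rank 64), then miR-34c-3p at 595 ± 82.8 CPM (rank 99) and miR-449a-3p at 20.3 ± 3.78 CPM (rank 271). The range of each of these 3 did not reach that of its neighbour in the order, whereas miR-34b-5p was above miR-34b-3p in 4 libraries and below it in the other 4. Levels of different miRNAs are compared here as read counts, and how efficiently each strand enters a library was not measured.

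**Figure D1:**
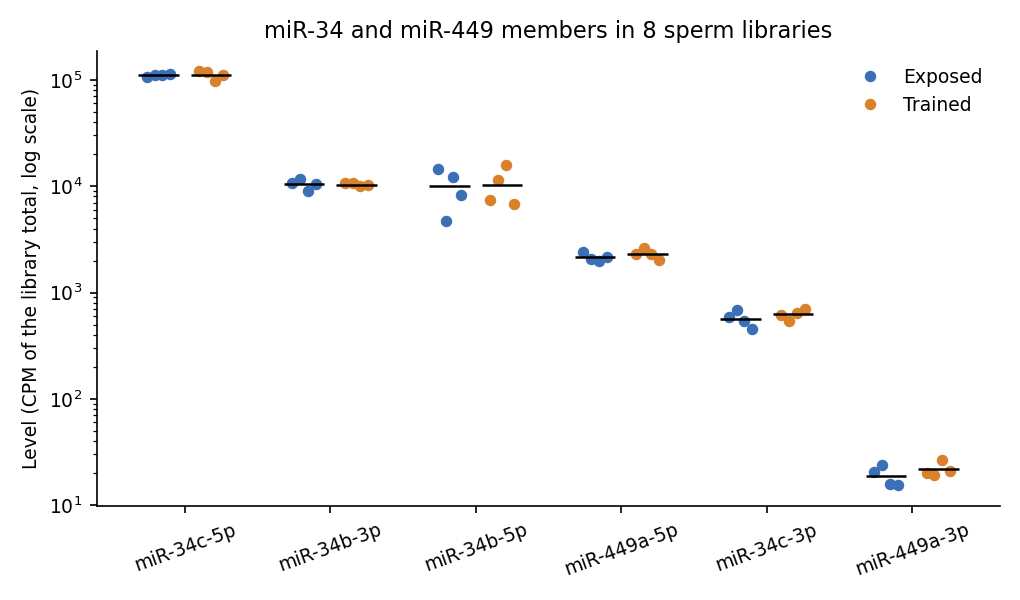
Level of each of the 6 members in CPM of the library total (log axis), with 1 point per library, Exposed in blue and Trained in orange in replicate order, and a bar at each group mean. The groups overlap for every member, and miR-34b-5p is spread from 4715 to 15655 CPM while miR-34b-3p stays between 8920 and 11565 CPM.

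The 2 clustered hairpins were used unequally. Reads from the Mir34c hairpin exceeded those from Mir34b 5.60-fold on average (SD 1.13, n = 8; range 3.82 to 6.81), and miR-34c-5p exceeded miR-34b-3p 10.7-fold (SD 0.917; range 9.53 to 12.3). Between the 3p strands the order was the opposite. miR-34b-3p exceeded miR-34c-3p 17.7-fold (SD 2.71; range 14.6 to 23.1), so the more abundant hairpin gave the scarcer 3p strand.

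Within a hairpin, miR-34c and miR-449a were almost wholly 5p. The 5p share of miR-34c was 99.5% in Exposed 1, 3 and Trained 1, 2, and its range over all libraries was 99.3% to 99.6%, with Wilson 95% intervals within 99.2% and 99.7%. As a ratio, miR-34c-5p exceeded miR-34c-3p by 150-fold in Trained 3 up to 247-fold in Exposed 4. For miR-449a the 5p share ran from 98.8% to 99.3%, with only 3 to 7 reads of the 3p strand per library. Among the 90 hairpins of the table with both arms listed under the same name, 8 had a mean 5p share above 99%, miR-34c and miR-449a among them. In 6 it was below 1%. Hairpins with an arm that was not listed are outside this count.

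miR-34b was the exception, with its arms near balance and the balance differing from library to library. Its 5p strand took 57.8%, 29.0%, 58.0% and 43.9% of the hairpin's reads in Exposed 1 to 4 and 40.6%, 51.6%, 61.2% and 39.9% in Trained 1 to 4. The 95% intervals of the extremes were far apart, at 27.5% to 30.5% in Exposed 2 and 60.0% to 62.3% in Trained 3. High and low libraries were found in both groups.

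The movement came from the 5p strand. miR-34b-5p stood at 14639, 4715, 12320 and 8222 CPM in Exposed 1 to 4 and at 7339, 11313, 15655 and 6730 CPM in Trained 1 to 4, a 3.32-fold range. miR-34b-3p stood at 10675, 11565, 8920 and 10528 CPM in Exposed 1 to 4 and at 10736, 10630, 9939 and 10152 CPM in Trained 1 to 4, a 1.30-fold range. Exposed 2, the library with the least miR-34b-5p, had the most miR-34b-3p. Relative to counting noise, the variation over libraries had a chi-square per degree of freedom of 359 for miR-34b-5p and 13.4 for miR-34b-3p, at similar counts. The ends of the miR-34b-5p range were Exposed 2 and Trained 3, the libraries that also stood at the ends of the marker sums, and the part of other cells in this spread was not tested. Over the libraries outside that pair, which also differed in their marker sums, the 5p share ran from 39.9% to 58.0%.

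**Figure D2:**
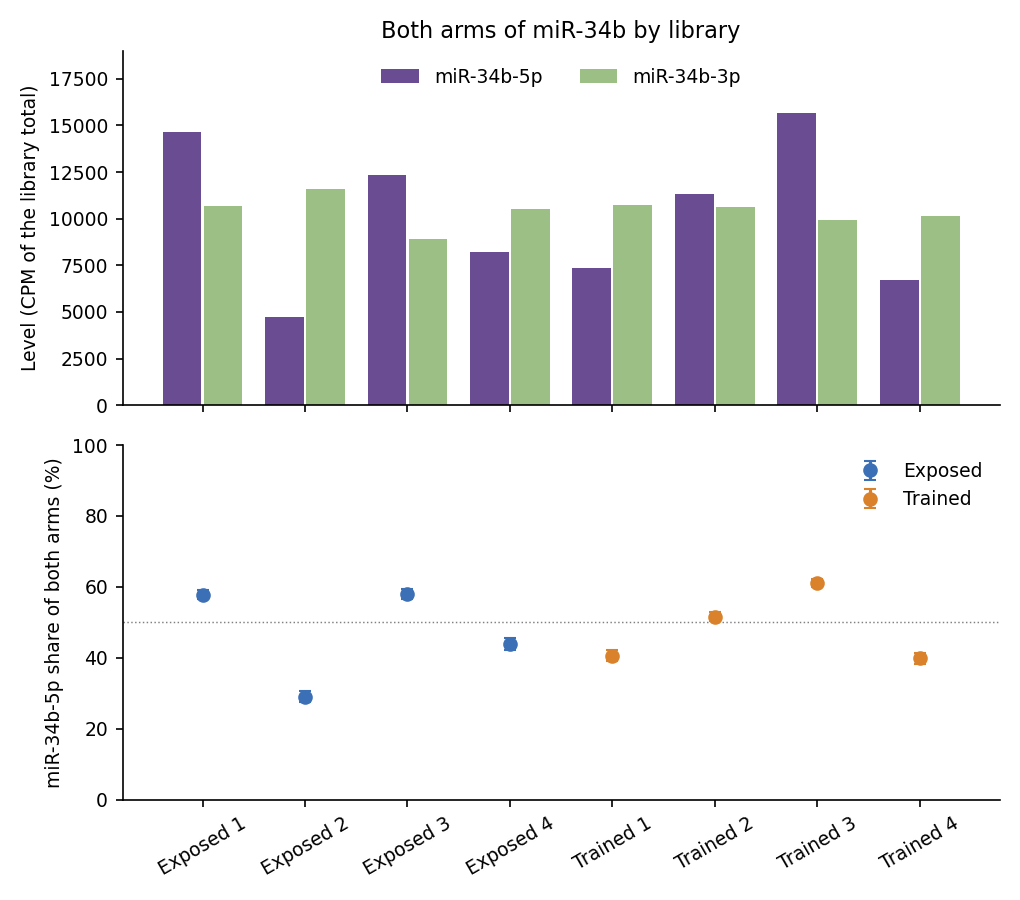
Upper panel, level of miR-34b-5p and miR-34b-3p in each library in CPM of the library total. Lower panel, share of the hairpin's reads that came from the 5p arm in percent, with Wilson 95% intervals for counting error and a dotted line at equal use. The share runs from 29.0% in Exposed 2 to 61.2% in Trained 3, with both groups on both sides of the line.

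The 5p strands of miR-34b and miR-34c are near-identical, and the mismatches allowed in counting are not given, so the division of reads between them is uncertain. Added together they came to 121148, 114911, 122399 and 120914 CPM in Exposed 1 to 4 and to 127335, 129843, 112878 and 117118 CPM in Trained 1 to 4. Their sum varied 1.15-fold, beside 1.23-fold for miR-34c-5p, which made up most of it, and 3.32-fold for miR-34b-5p. Trained 3 had the most miR-34b-5p and the least miR-34c-5p. In Exposed 2, where miR-34b-5p was lowest, miR-34c-5p stood in the middle of its range. The part of the read division in the spread of miR-34b-5p was not tested.

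Other hairpins gave a scale for the arm balance of miR-34b. Of the 90 hairpins, 15 had a mean of at least 100 counts in each arm, and the SD of the log2 ratio of 5p to 3p over the 8 libraries was largest for miR-34b, at 0.67, against a median of 0.33. miR-743a (0.45) and miR-465b (0.44) of the X-linked set came next, miR-34c (0.25) ranked 10, and miR-30a (0.056) was last. miR-743a and miR-30a are named here after their values were seen. In percentage points, the 5p share of miR-34b covered 32.2 and that of miR-743a 20.4. Of the 5 most abundant hairpins outside the family among these 90, miR-465b averaged 87.2% 5p, miR-465c 80.4%, miR-191 98.6%, miR-148a 0.201% and miR-743b 8.06%. miR-465b and miR-465c are near-identical, so their division is uncertain too.

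**Figure D3:**
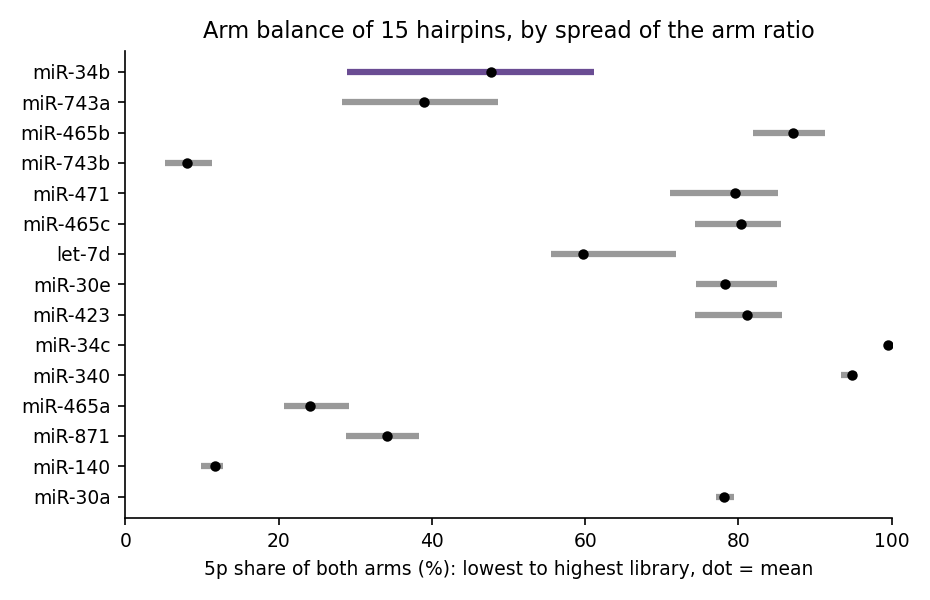
Share of reads from the 5p arm, in percent, for the 15 of 90 hairpins with a mean of at least 100 counts in each arm, ordered by the spread of their log2 arm ratio. Bars run from the lowest to the highest of 8 libraries and dots mark the mean; miR-34b and miR-34c are in purple, and miR-34b, from 29.0% to 61.2%, has the widest bar.

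The spread between libraries set miR-34b-5p apart from the other members. On the log2 TMM CPM scale, the SD over 8 libraries was 0.092 for miR-34c-5p, 0.097 for miR-34b-3p, 0.13 for miR-449a-5p and 0.20 for miR-34c-3p, against a median of 0.23 for all 226 miRNAs that passed the expression filter. For miR-34b-5p it was 0.61, the 17th largest of the 226. Among the 83 miRNAs above 1000 CPM, miR-34b-5p ranked 5 in spread, and miR-34b-3p and miR-34c-5p ranked 72 and 76. The largest spreads in that set, named after their values were seen, were those of miR-3107-5p (1.87) and miR-486-5p (1.85) of the red blood cell list and miR-142-5p (0.71) of the leukocyte list.

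**Figure D4:**
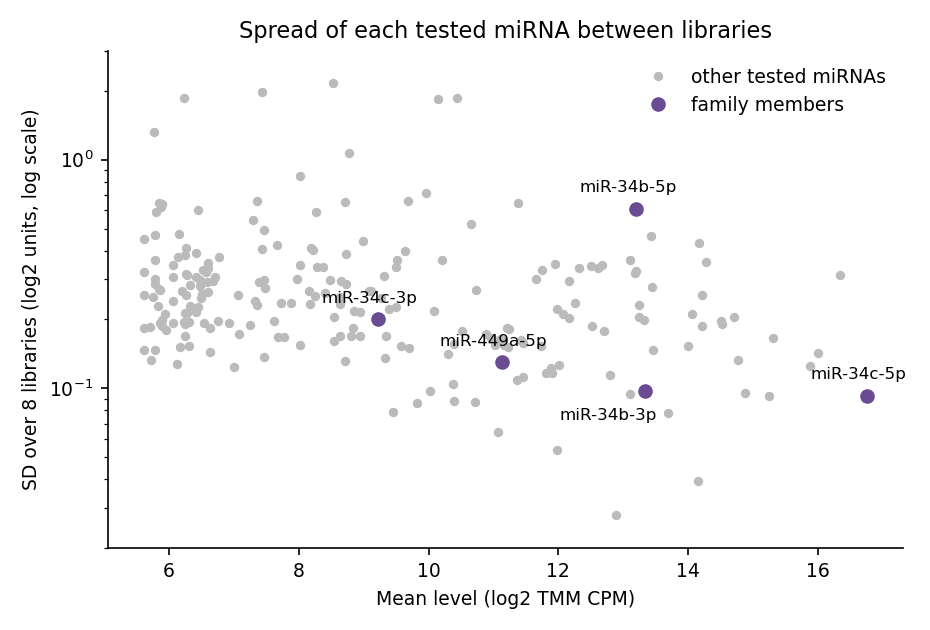
Standard deviation over the 8 libraries in log2 units (log axis) against mean level in log2 TMM CPM, for each of 226 miRNAs, with the 5 filtered-in members in purple. miR-34c-5p and miR-34b-3p lie low at 0.092 and 0.097, and miR-34b-5p lies high at 0.61.

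The miRNAs most like miR-34c-5p over the 8 libraries were miR-9-5p, miR-30a-3p, miR-27b-3p, miR-25-3p and miR-501-3p, with root mean square differences of 0.037, 0.062, 0.066, 0.075 and 0.075 in centred log2 level. All have small spread of their own (SD 0.039 to 0.11). The measure counts unequal spread as well as unlike movement, so small spread alone brings a miRNA near miR-34c-5p. On the TMM scale miR-34c-5p and miR-9-5p were both lowest in Trained 3 and highest in Trained 2, which a choice by likeness favours. Of the other members, miR-34b-3p came 16th in likeness to miR-34c-5p (0.11), miR-449a-5p 29th (0.14), miR-34c-3p 104th (0.23) and miR-34b-5p 209th (0.61). That is also the order of their SDs, from the smallest to the largest. All levels share the same library totals.

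By the root mean square difference, which also counts unequal spread, miR-34b-5p had no close partner. By the same measure its nearest miRNAs were miR-7b-5p (0.30), miR-27a-3p (0.31), miR-293-5p (0.35), let-7a-1-3p (0.35) and miR-361-3p (0.36), at mean levels of 85.7 to 818 CPM. For 4 of these 5, Exposed 2 was the lowest library, and for 4 of 5 Trained 3 was the highest. The 5 were picked for nearness to miR-34b-5p, which was itself lowest in Exposed 2 and highest in Trained 3. These shared extremes therefore follow in part from the choice. The spread of the 5 miRNAs was smaller than that of miR-34b-5p, with SDs of 0.24 to 0.40 on the log2 scale. Part of these differences is therefore unequal spread, and how far these miRNAs moved together with miR-34b-5p was not tested.

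The last base of the mature strand is a sequence feature in which the members differ, and library values were set beside it. miR-34b-5p ends in U, as does miR-449a-5p, while miR-34b-3p and miR-449a-3p end in C and miR-34c-3p in G. miR-34c-5p, the member without a RefSeq mature sequence, is left out here. Of 221 miRNAs outside the family that passed the filter, 177 (80.1%) had a RefSeq sequence of the same name, of which 72 end in U, 43 in A, 23 in C and 39 in G. The arms of miR-34b differ as U against C. The median centred log2 level of miRNAs ending in U, minus that of those ending in C, was 0.11, -0.20, 0.11 and -0.0045 in Exposed 1 to 4 and -0.031, -0.0091, 0.14 and -0.074 in Trained 1 to 4. The median centred log2 level of those ending in U, minus that of those ending in A, was 0.25, -0.38, 0.19 and -0.07 in Exposed 1 to 4 and -0.16, 0.12, 0.23 and -0.17 in Trained 1 to 4. The log2 ratio of miR-34b-5p to miR-34b-3p in the same order was 0.46, -1.29, 0.47 and -0.36, then -0.55, 0.09, 0.66 and -0.59. The arm ratio had the sign of U minus C in 7 of 8 libraries, with Trained 2 the exception, and the sign of U minus A and of U minus G in 8 of 8. These 3 differences share the same U median in each library, so their signs are not separate observations. Neither arm of miR-34b ends in A or G. The arm ratio is 0 at equal counts, whereas the medians are centred on each miRNA's own mean. The signs compared are therefore taken around unlike zeros. Differences of U minus C in Exposed 4 and Trained 2 were close to 0. Exposed 2 was the lowest library in all of these measures. Depth moved with the arm ratio in part. The 3 largest library totals, 261903, 260685 and 254944 counts, were those of Trained 3, Trained 2 and Exposed 3, all with a log2 arm ratio above 0, while Exposed 1, also above 0, had a smaller total (241885 counts) than Trained 1 (250458 counts), which was below 0. These measures are set side by side as a description, with the feature chosen after the values were seen, and the part of the last base or of depth in the arm balance was not tested. miR-449a-5p, with the same last base, had a range of 1.34-fold.

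The design sets Trained against Exposed sperm, and the family's levels were compared between them. The quasi-likelihood test of edgeR called 0 of 5 tested members at FDR 0.05, beside 0 of all 226 tested (0.00%). At an unadjusted p under 0.05 there were again 0 members, beside 10 of 226 (4.42%), of which 9 were lower (3.98%) and 1 higher (0.442%) in Trained. DESeq2 and limma-voom also called 0 at FDR 0.05, with 12 and 9 miRNAs at an unadjusted p under 0.05 and 0 members among them.

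The fitted differences were small next to their errors. miR-34c-5p had a log2 fold change, Trained over Exposed, of -0.011 (SE 0.088, 95% interval -0.21 to 0.19, edgeR FDR = 0.998), and its group means by library total are given above. For miR-34b-3p it was -0.039 (SE 0.099, interval -0.26 to 0.18), with means of 10422 ± 1101 CPM for the Exposed and 10364 ± 381 CPM for the Trained libraries (SD, n = 4). miR-34b-5p, at 9974 ± 4397 and 10259 ± 4131 CPM (SD, n = 4), had a log2 fold change of 0.010 with a far wider interval, from -0.89 to 0.91 (SE 0.39). Without Exposed 2 and Trained 3, the pair at the ends of the marker sums, the signs turned, to 0.10 for miR-34c-5p, 0.087 for miR-34b-3p and -0.44 for miR-34b-5p, and again none passed. A p-value that misses the threshold does not show that the groups are alike.

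The scarcer members overlapped between groups as well. miR-449a-5p stood at 2406, 2082, 1977 and 2181 CPM in Exposed 1 to 4 and at 2328, 2647, 2283 and 2015 CPM in Trained 1 to 4, with only Trained 2 above all Exposed libraries (log2 fold change 0.07, SE 0.11, interval -0.17 to 0.31, edgeR FDR = 0.998). miR-34c-3p stood at 583, 685, 537 and 456 CPM in Exposed 1 to 4 and at 619, 537, 649 and 697 CPM in Trained 1 to 4 (0.11, SE 0.15, interval -0.23 to 0.45, edgeR FDR = 0.998). Its low value in Exposed 4 rests on 88 reads. miR-449a-3p had 5, 5, 4 and 3 reads in Exposed 1 to 4 and 5, 5, 7 and 5 reads in Trained 1 to 4, and the expression filter left it out of the test. Fitted with no filter, its log2 fold change was 0.18 with an interval from -0.79 to 1.15 (SE 0.44, edgeR FDR = 0.998). The 5 tested members had a median log2 fold change of 0.010, 3 above and 2 below 0, beside a median of 0.0049 for all 226, with 117 above and 109 below 0.

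**Figure D5:**
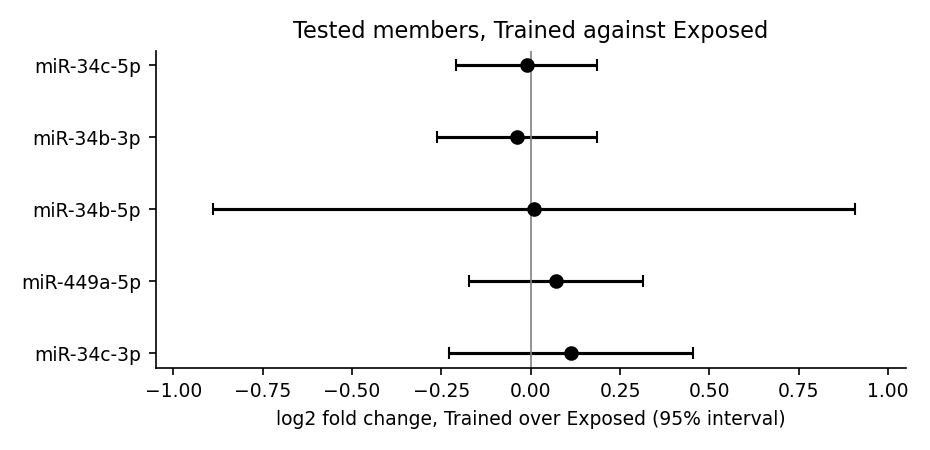
Fitted log2 fold change of Trained over Exposed for the 5 tested members, with 95% intervals from edgeR's quasi-likelihood test. Every interval includes 0, and that of miR-34b-5p, from -0.89 to 0.91, is the widest.

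In the authors' deposited table the fold changes of the members were of the same small size, from -0.028 for miR-34b-3p to 0.12 for miR-34c-3p on the log2 scale. The smallest p-value of a member in the authors' deposited table was 0.637, and the FDR there was 1 for all 6. The authors' deposited table had 20 of 387 miRNAs at an unadjusted p under 0.05 (5.17%), with 0 members among them.

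Shares and ratios taken within a hairpin or between members do not depend on the library total, and none of the 5 passed the exact test between groups. The 5p share of miR-34c was 99.5% ± 0.091 in Exposed and 99.4% ± 0.099 in Trained (SD, n = 4; exact permutation p = 0.457, two-sided), and the difference had an interval of -0.26 to 0.17 percentage points. The 5p share of miR-34b, a test added after its values were seen, was 47.2% ± 13.8 in Exposed and 48.3% ± 10.1 in Trained (exact permutation p = 0.914), with an interval of -18.1 to 32.2 percentage points, and the difference turned to -9.22 points without Exposed 2 and Trained 3 (exact permutation p = 0.200). The log2 ratio of miR-34b-3p to miR-34c-5p was -3.40 ± 0.16 and -3.42 ± 0.091 (exact permutation p = 0.800), that of miR-449a-5p to miR-34c-5p was -5.67 ± 0.14 and -5.59 ± 0.17 (exact permutation p = 0.429), and that of miR-34b-3p to miR-34c-3p was 4.21 ± 0.22 and 4.05 ± 0.20 (exact permutation p = 0.343).

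The family share of all counts was 13.3% ± 0.253 in Exposed and 13.5% ± 0.860 in Trained (SD, n = 4; exact permutation p = 0.629), with an interval of -0.90 to 1.44 percentage points. Intervals of these differences hold the shifts that the exact test did not reject at 0.05. Adjusted over the 6 tests of shares and ratios, every p was 0.914, and the smallest that 4 against 4 samples can give before adjustment is 0.0286. The SD of the share was larger in Trained than in Exposed for the family and smaller for the arms of miR-34b, and these spreads were not tested against each other.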

How the data were processed

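Total RNA of sperm (Qiagen miRNeasy) was made into Exiqon libraries and read as 50 nt single-end reads, per the labels' protocols. The authors deposited whole-number read counts per mature miRNA, with group means of those counts (a score here, not used). Log2 fold changes with mean log2 CPM, and p-values with FDR, are also in the authors' deposited table, with edgeR named in the submitters' processing notes without a version. Trimming, alignment, mismatches and genome build: not given in the sources used here.

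Members are all rows that match the family's names, and the members, lists, tests and named miRNAs were chosen with earlier results of these data known. An expression filter (edgeR's default by group) left out 1 of the 6 members, miR-449a-3p, from the test. Levels are CPM of the library total. Fold changes come from edgeR 4.0.16 (R 4.3.3) with TMM scaling and robust quasi-likelihood F tests, two-sided, with Benjamini-Hochberg adjustment over 226 miRNAs. SEs were taken from the fold change and its p-value. Shares and log2 ratios (0.5 added to each count) used exact permutation tests over 70 assignments. Likeness is the root mean square difference of centred log2 TMM CPM over 8 libraries. Named miRNAs are the members, the 5 most like miR-34c-5p, the 5 most abundant miRNAs, and 5 hairpins. These are the most abundant outside the family with both arms listed under the same name. The arm share of miR-34b, the sum of the miR-34b and miR-34c 5p strands, the miRNAs most like miR-34b-5p and the look at last bases were added after the values were seen. Alternatives were other scaling factors and filters, DESeq2 1.42.0, limma-voom (limma 3.58.1), no robust estimation, other library totals, no pseudocount, summed counts, the replicate number as a block, and leaving out libraries. The scripts were tested on simulated data. Sequences and hairpin positions are from RefSeq on GRCm38.p6, and neighbouring genes from GENCODE M21.

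Library totals of 193013 to 261903 counts are reads assigned to listed miRNAs, no molecular identifiers are described, and intervals on shares (Wilson, 95%) cover counting error only. Pairs of libraries within a group had a chi-square per degree of freedom of 2.41 to 44.6 over miRNAs, above counting noise. Each library was used as a separate sample, but this excess cannot show that they are different animals.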

Additional observations from a re-analysis of the deposited data

How the results depend on the processing

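With other scaling factors, filters, tests and library totals, and with 1 library left out, 0 miRNAs passed FDR 0.05 and no share or ratio passed its test. The small fitted signs were not stable. The log2 fold change of miR-34c-5p turned to 0.022 with library totals alone, 0.017 with no count filter, 0.0059 with a filter of 10 CPM in 4 libraries and 0.10 on leaving out Exposed 2 with Trained 3, a pair chosen after seeing the data. That of miR-34b-5p turned to -0.0018 with RLE factors, -0.064 with upper quartile factors, -0.0017 with DESeq2 and -0.44 without that pair, and that of miR-34b-3p to 0.087 without the pair. The difference in the miR-34b 5p share was then -9.22 percentage points (exact permutation p = 0.200). With so few libraries left, that test cannot reach 0.05.

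With 1 library left out, the log2 fold change ran from -0.033 to 0.078 for miR-34c-5p, -0.095 to 0.018 for miR-34b-3p, -0.24 (without Trained 3) to 0.25 (without Exposed 1) for miR-34b-5p, 0.027 to 0.13 for miR-449a-5p and 0.043 to 0.22 for miR-34c-3p. The family share difference ran from -0.074 (without Trained 2) to 0.52 percentage points (without Trained 3), the miR-34b 5p share from -4.93 (without Exposed 2) to 4.75 (without Exposed 3), and the log2 ratio of miR-34b-3p to miR-34c-5p from -0.093 to 0.031. The cause of these turns was not tested.

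Libraries with the same replicate number had deviations from their group means that correlated at -0.41 for number 1 and at 0.66, 0.69 and 0.49 for numbers 2 to 4, and 5 of 8 libraries correlated best with their own number. With number 1 negative and no shared source in the labels, the numbers were not taken as pairs, and the 3 positive values of 4 are a hint from the data only. With the replicate number as a block, 0 miRNAs passed FDR 0.05 and 14 had an unadjusted p under 0.05, against 10 without it. The within-number exact permutation p was 0.750 for the family share and 0.875 for the miR-34b 5p share. With 4 numbers that test cannot give a p under 0.05, so these values decide nothing. Depth limits miR-449a-3p most, at 3 to 7 reads per library.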
